A study of Aspergillus nidulans with 8 samples.

Results

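This report describes 97 genes of the filamentous fungus Aspergillus nidulans with much lower transcript levels after amphotericin B (AmB) on the arrays labelled control. On the arrays labelled mutant these levels were little changed. All levels are relative to the 75th percentile of the signals on each array, which was itself lower under AmB. The genes were chosen by 3 criteria. The change, which is the log2 level under AmB minus the log2 level in the untreated culture of the same strain label, was -2 or less on the arrays labelled control, that is at least 4-fold lower. It was above -0.5 on the arrays labelled mutant, and on both untreated arrays at least 2 of the 4 spots of the probe were well above background. Of 10550 probes, one for each transcript, 7986 met the background criterion and 97 of them (1.21%) met all 3. Outside the tests given further below, all probes means these 7986. A level is the log2 processed signal of a probe relative to the 75th percentile of the signals on its array. Since the AmB and untreated arrays chose the genes, their AmB changes are given as a description, with no test.

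Each of the 8 single-colour arrays held RNA pooled from 3 submerged cultures, with 1 array for each strain label in each condition. The strain labelled control is the reference strain THS30.3 (pyrG89, AfupyrG+; pyroA+; veA+). The strain labelled mutant is TNJ 92.4, deleted for atfA (pyrG89, AfupyrG+; pyroA4; DatfA::pyroA; veA+). Both carry pyrG89 with the AfupyrG+ marker and veA+, and in the deletion strain pyroA replaces atfA. Stress was applied for 0.5 h to cultures that were 16.5 h old at harvest, with AmB at 2 mM, CdCl2 at 0.2 mM or Congo Red at 10 mM. These doses are those of the labels, the only source used for them, and their units are in doubt: if a micro sign dropped out of a label, the true dose of AmB was far lower than printed.

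AtfA is a bZIP transcription factor of the fungal stress response, and AmB is a polyene drug that binds ergosterol in the plasma membrane. Ribosome biogenesis is the stepwise making of ribosomal subunits in the nucleolus, where precursor rRNA is cut, modified and folded with the help of assembly factors, among them many DEAD-box RNA helicases. In budding yeast the genes of these factors form a large co-regulated group whose transcripts drop early in many stresses.

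The atfA probe went against the strain labels on all 8 arrays. Its processed signal was 2.3 to 3.09 on the 4 arrays labelled control, where no spot was well above background, and 3270 to 9710 on the 4 arrays labelled mutant. In the authors' value table, which holds log2 values of the same 8 samples, atfA followed the labels, at 13.66 to 14.6 in the control columns and 6.19 to 6.26 in the mutant columns. The closest array to each column of that table, by Pearson's r, always bore the opposite strain label. The control untreated column matched the mutant CdCl2 array (Pearson's r = 0.971 across probes) slightly better than the mutant untreated array (r = 0.969), and the control CdCl2 column matched the mutant untreated array best (r = 0.974, against 0.966 for the mutant CdCl2 array). The CdCl2 changes of the control and mutant sides correlated across 7110 probes at r = 0.168 on the arrays and -0.154 in the value table. For Congo Red these were 0.279 and 0.346. Which source holds the right treatment labels was not tested. Across probes these are descriptions, since genes are not independent replicates. The arrays are therefore called by their labels throughout, as the control side and the mutant side, every direction between strains is one between labels that atfA contradicts, and AmB changes on the mutant side are also given against the mutant CdCl2 array for the 97 genes as a group, for the 11 with a symbol, for those with the largest control changes and for the lists that hold any of the 97.

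The array labelled control with AmB stood apart in nearly all of the 97 genes. It had the lowest level of the 8 arrays in 95 of them and the lowest of the 4 control arrays in 96. The mutant AmB array was in turn the lowest of the 4 mutant arrays in 58 of the 97. Shares of all probes for these counts were not computed. The AmB change on the control side had a median of -2.24 and ran from -3.29 to -2.002, against a median of -0.11 over the 7986 probes, 5.43% of which reached -2 or less. The mutant change had a median of -0.19 and ran from -0.50 to 0.74, against -0.05 over all probes, 70.7% of which lay above -0.5. Of the 97 genes 25 were above 0 there (47.6% of all probes), and none was 2-fold higher (14.2%). These shares are set by the choice of genes, and nothing is read from them. In bulk RNA, fewer cells of a kind and less RNA per cell cannot be told apart.

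**Figure D1:**
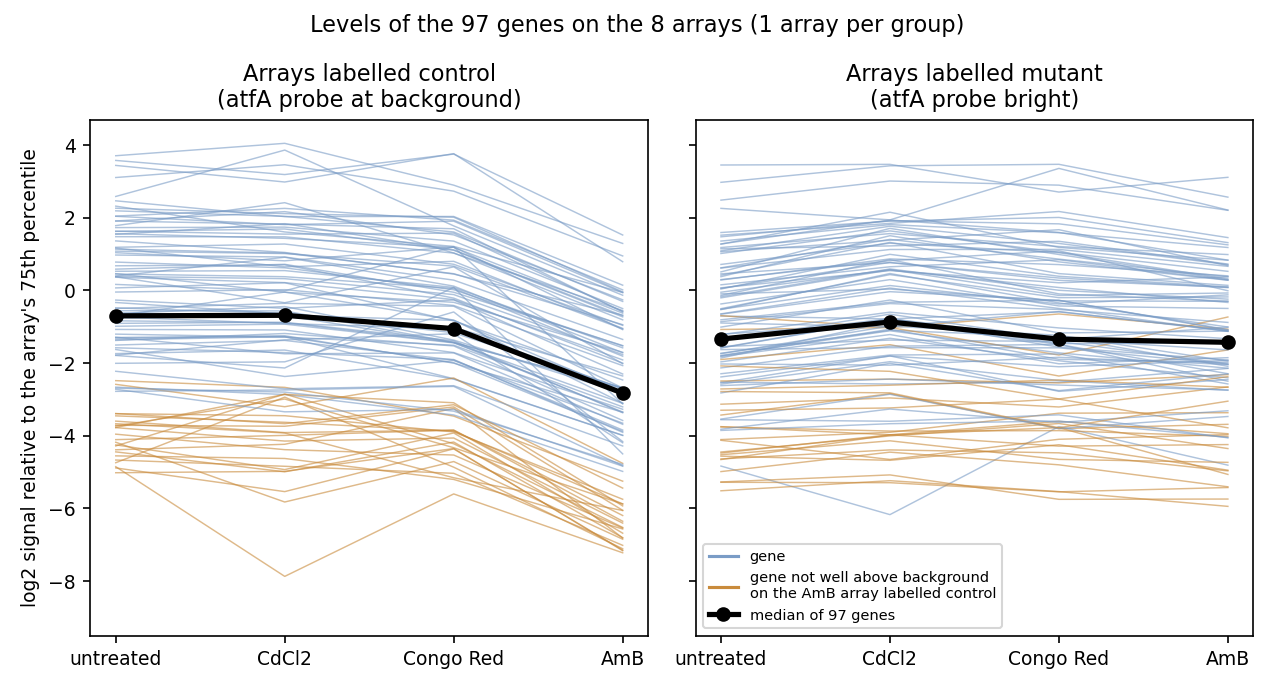
Levels of the 97 genes (log2 signal relative to the array's 75th percentile, y axis) in the 4 conditions (x axis), with arrays labelled control on the left and arrays labelled mutant on the right; each line is 1 gene, orange lines are the 24 genes not well above background on the control AmB array, and the black line is the median. The median is -2.83 on the control AmB array and between -1.43 and -0.87 on the 4 mutant arrays.

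Median levels over the 97 genes put numbers to this pattern. Labelled control, the median was -0.70 untreated, -0.69 with CdCl2, -1.05 with Congo Red and -2.83 with AmB. Labelled mutant, it was -1.34 untreated, -0.87 with CdCl2, -1.34 with Congo Red and -1.43 with AmB. The 2 untreated arrays thus also differed. The 97 genes had a median of 0.74 more on the untreated array labelled control than on the one labelled mutant, against 0.03 over all probes. The difference was above 0 in 82 of 97, against 52.3% of all probes. This difference enters the choice of genes, because a low untreated level on the mutant side raises the AmB change there. Under AmB the control array was lower by a median of 1.39 (control minus mutant -1.39, with 1 of 97 above 0). Over all probes the median was -0.11, with 45.5% above 0.

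Signal on the AmB arrays was dim, which limits how large the decreases can be said to be. Processed signals had their 75th percentile at 335.7 on the control AmB array and 261.8 on the mutant one, against 1062 to 1876 on the other 6. On the untreated arrays it was 1366 for control and 1448 for mutant, so a level that stayed the same still meant less processed signal. For erb1 the processed signal was 1398 untreated and 249.2 with AmB on the mutant side, and 2345 and 116.5 on the control side. The cause of the lower signal was not tested. Of the 97 genes 24 were not well above background on the control AmB array, so that only a bound can be given for them. The bounds ran from 1.57-fold to 6.80-fold lower than untreated, and 7 of the 24 were 4-fold or more. Each sets the untreated level against the gene's own signal or the lowest signal of any probe well above background on the AmB array, whichever is higher. Where the gene's own signal is higher, as in AN2077 and AN6809, the bound equals the fitted change and no detection limit enters it. For the other such genes a fitted change printed below is not a bound. The other 73 genes were well above background on all 8 arrays, and were 4.005-fold to 9.767-fold lower, with a median change of -2.20.

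Another treatment of the signal moved these values widely. With the normexp background correction, which was run on the median spot signal and adds an offset of 50, the median AmB change of the 97 genes was -0.33 on the control side and 0.19 on the mutant side, while the medians over all probes rose to 0.74 and 0.35. Of the 97 genes 39 were then at least 2-fold lower on the control side, where 10.6% of all probes were. Above 0 were 42 of them, against 67.9% of all probes. Among the 73 genes measured on all arrays the normexp median was -1.11, with 39 at least 2-fold lower. The order of the medians stayed, with the lower median on the control side, also among the 73 genes (0.05 on the mutant side). It did not hold in every gene. With normexp AN2077 had 1.06 on the control side and 0.83 on the mutant side, AN3526 had 2.24 and 0.15, and trm61 had 0.37 and 0.40. In clxA it held, at -2.59 and -0.07. Normexp values given below for single genes are those of the control side.

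**Figure D2:**
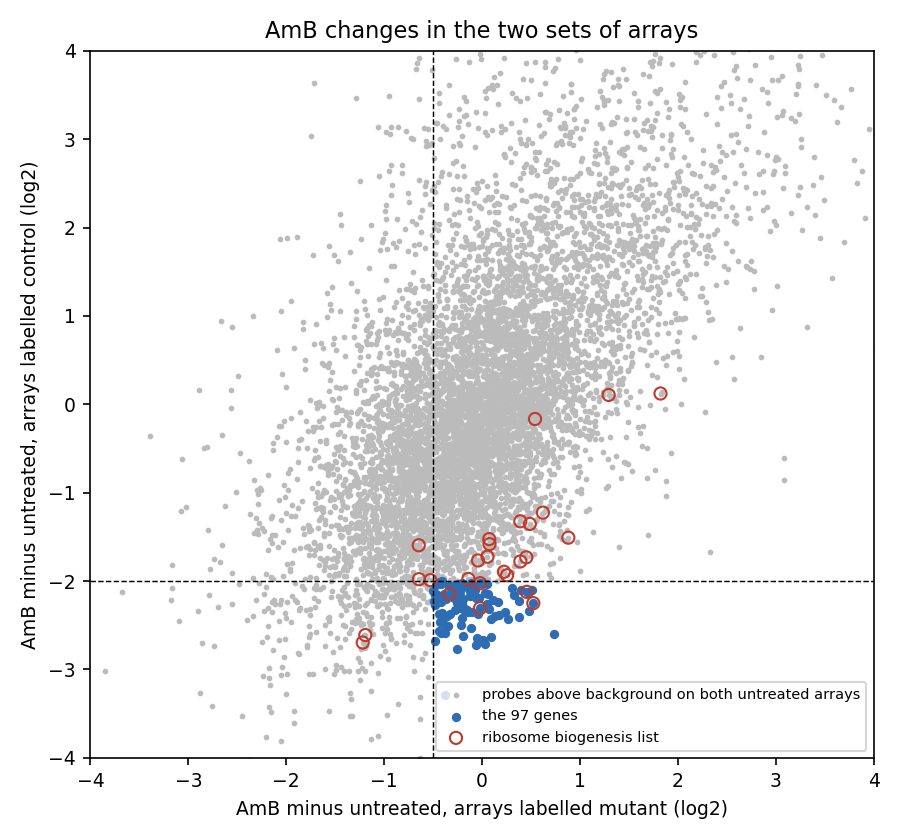
AmB change on the arrays labelled mutant (x axis, log2) against that on the arrays labelled control (y axis, log2) for probes well above background on both untreated arrays; grey points are all such probes within the axes, blue points the 97 genes, red circles the ribosome biogenesis list, and dashed lines the thresholds of -2 and -0.5. The 97 genes fill the lower right corner by construction, and most red circles lie below 0 on the control axis.

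Genes close to the thresholds show how gradual the edge of the group is. Just inside the control threshold were AN12438 at -2.01 and AN1953 at -2.002, and just outside it AN4963 at -1.9995 and AN0905 at -1.9981. On the mutant side AN6070 at -0.499 and AN2926 at -0.491 lay inside, and AN8247 at -0.515 and AN12027 at -0.536 outside. Of the 434 probes with a control change of -2 or less, 97 were kept, 57 were at -2 or less on the mutant side too, and 280 lay between the thresholds.

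A RefSeq table (assembly ASM1142v1) matched 91 of the 97 genes and gave a symbol to 11 of them. These are erb1, spb4, dbp9, drs1 and lcp5 of ribosome biogenesis, trm61, tim44, clxA, cwh41, rmtA and kipB. The other 86 are called by AN number here, and whether any of them belongs to ribosome biogenesis cannot be told from the table. Placed in gene order, none of the 91 matched genes lay next to another of them. Their median length was 1576 bases, against 1613 for all probes.

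The 5 ribosome biogenesis genes are named after yeast assembly factors. In yeast Erb1 is a scaffold protein that works with Nop7 and Ytm1 in the maturation of the large subunit. Spb4, Dbp9 and Drs1 are DEAD-box RNA helicases of large-subunit assembly, and Lcp5 takes part in the cutting of precursor rRNA for the small subunit.

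For erb1 (AN1367) the level on the arrays labelled control was 0.78 untreated, -1.53 with AmB, 0.62 with CdCl2 and 0.02 with Congo Red. On those labelled mutant it was -0.05, -0.07, 0.57 and -0.14 in the same order. Only the control AmB array was low, 4.95-fold below its untreated array (-1.54 on the log2 scale with normexp), and on the mutant side the CdCl2 array was the high one. The AmB change was -2.31 on the control side and -0.02 on the mutant side, or -0.64 against the mutant CdCl2 array.

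For spb4 (AN3176) the control levels were -1.74 untreated, -3.99 with AmB, -1.64 with CdCl2 and -2.44 with Congo Red. The mutant levels were -2.82, -2.30, -2.01 and -2.76. On the mutant side the untreated array was the lowest and AmB lay above it. The change was -2.25 on the control side (0.43 with normexp) and 0.52 on the mutant side, or -0.29 against the mutant CdCl2 array.

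For dbp9 (AN6374) the control levels were -0.56 untreated, -2.70 with AmB, -0.56 with CdCl2 and -1.43 with Congo Red. The mutant levels were -1.59, -1.92, -0.78 and -1.56. AmB was the lowest array of each side, and the mutant CdCl2 array the highest of its side. The change was -2.15 on the control side (-0.38 with normexp) and -0.33 on the mutant side, which became -1.13, over 2-fold lower, against the mutant CdCl2 array.

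For drs1 (AN10125) the control levels were -0.05 untreated, -2.07 with AmB, 0.02 with CdCl2 and -0.42 with Congo Red. The mutant levels were -0.86, -0.88, -0.36 and -0.52. Its untreated and AmB arrays labelled mutant were nearly equal. The change was -2.02 on the control side, close to the threshold (-0.81 with normexp), and -0.02 on the mutant side, or -0.52 against the mutant CdCl2 array.

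For lcp5 (AN5340) the control levels were -0.99 untreated, -3.11 with AmB, -0.93 with CdCl2 and -1.44 with Congo Red. The mutant levels were -2.38, -1.92, -1.81 and -2.10, so that the untreated array was the lowest of its side. The change was -2.12 on the control side (-0.09 with normexp) and 0.46 on the mutant side, or -0.12 against the mutant CdCl2 array.

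The 5 genes thus shared a single low array on the control side, and a mutant untreated level below that of the mutant CdCl2 array. With the mutant CdCl2 array as baseline only spb4 and lcp5 still met the mutant criterion of -0.5. In the authors' value table, the AmB changes of the 5 genes lay between -2.17 and -1.92 in the mutant columns, those with atfA at background, and between -1.04 and -0.19 in the control columns. That table holds values of the same samples and is no independent measurement.

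The matched part of the ribosome biogenesis list shows these 5 genes within a graded series. Of the 215 entries of the list 26 were matched to a symbol on the array, and the values below are those of these 26 genes. They were all well above background on both untreated arrays, and the list was chosen with earlier results of these data known. Their median AmB change was -1.77 on the control side and 0.15 on the mutant side (medians over all probes -0.11 and -0.05). With normexp the medians were -0.74 and 0.28. On the control side 23 of 26 were at least 2-fold lower, where 23.8% of all probes were, and 7 were at -2 or less (5.43% of all probes). Labelled mutant, 2 of 26 were at least 2-fold lower, where 12.4% of all probes were, and 21 lay above -0.5 (70.7% of all probes). The control change was below the mutant change in 26 of 26 genes, against 52.9% of all probes. It was so in every measured gene of some other lists too, as given below. By the rule that chose them, the 5 genes had to fall within the 23, the 7, the 21 and the 26. All these counts use the same AmB and untreated arrays as that rule. They are given as a description, with no test.

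Both genes of the list with a lower control change than erb1 were left out by their mutant change. These were loc1 (AN6556), at -2.70 and -1.22, and mak5 (AN1750), at -2.61 and -1.19, a DEAD-box helicase of the large subunit in yeast. Next below the threshold came noc4 (AN1533), a small-subunit factor in yeast, at -1.99 on the control side, pxr1 (AN11066) at -1.98 and nop12 (AN1452) at -1.98. The yeast partner of Erb1, Nop7, has its counterpart nop7 (AN3827) in the list at -1.78 and 0.39. The core proteins of the snoRNPs that guide rRNA modification, nop58 (AN3167) and cbf5 (AN8851), stood at -1.73 and -1.72 on the control side and at 0.45 and 0.06 on the mutant side.

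The 3 list members without a 2-fold lower level on the control side were rpp1 (AN5719) at -0.17, dbp8 (AN4903) at 0.11 and dbp3 (AN7424) at 0.12. The symbol rpp1 is used for an RNase P subunit and, in some fungi, for an acidic ribosomal protein, and the table does not say which this is. The mutant changes of dbp8 and dbp3, both named after DEAD-box helicases, were 1.29 and 1.82. Against the mutant CdCl2 array the median of the list was -0.50, against 0.02 over all probes. There 13 of 26 were above -0.5 (71.6% of all probes) and 7 at least 2-fold lower (13.1%).

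**Figure D3:**
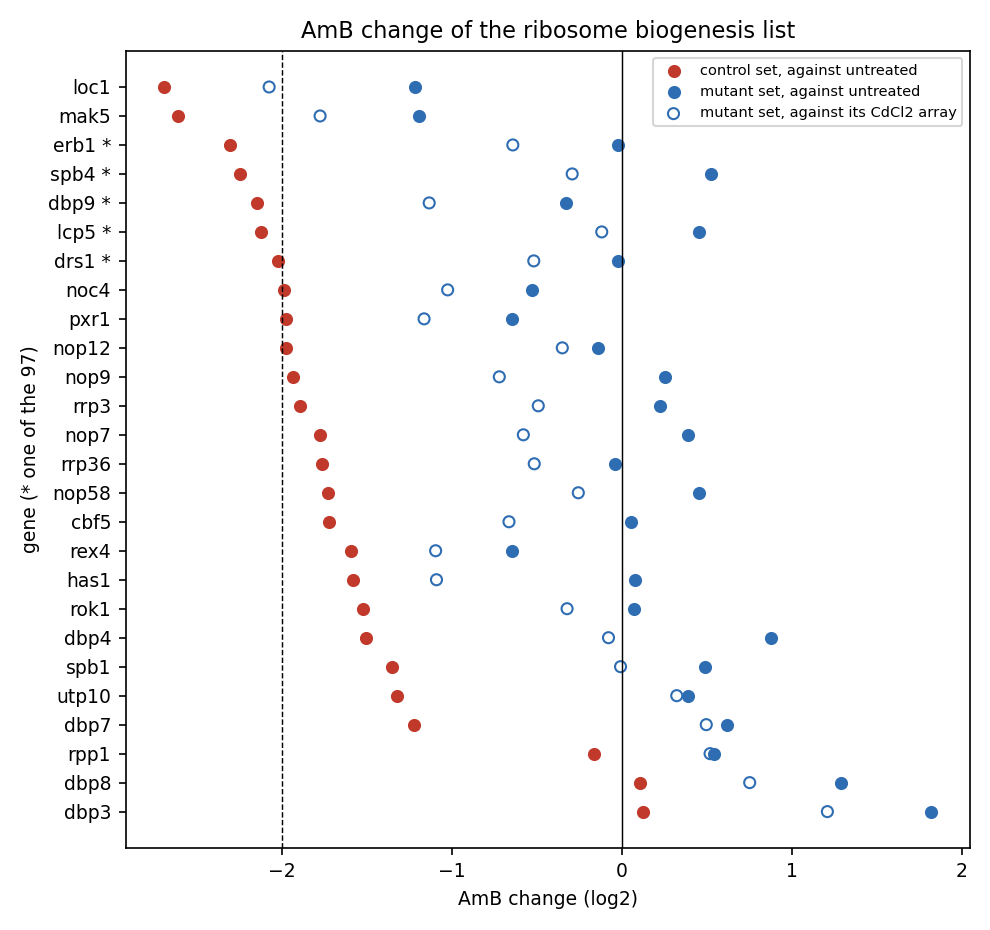
AmB change (x axis, log2) of the 26 genes of the ribosome biogenesis list (y axis, ordered by the control change; asterisks mark the 5 genes among the 97) on arrays labelled control (red) and on arrays labelled mutant against the untreated array (filled blue) or the CdCl2 array (open blue). Red points lie left of both blue points in every gene, and 23 of 26 lie at -1 or less.

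Neighbouring lists of the growth machinery did not all behave alike in the size of the AmB change. The control change was below the mutant one in 6 of 6 ribosomal protein genes, 6 of 6 translation factors and 8 of 8 genes of mitochondrial import. For tRNA modification and charging it was 7 of 8, for nucleotide synthesis 6 of 10, and for chaperones and the cell cycle 6 of 9 each (52.9% of all probes). Of 6 ribosomal protein genes none was 2-fold lower on either side (23.8% and 12.4% of all probes). Their medians were -0.13 on the control side and 0.56 on the mutant side. For 6 translation factors the medians were -0.73 and 0.12, with 2 at least 2-fold lower on the control side and 0 on the mutant side. The 10 genes of nucleotide synthesis had medians of -0.64 and 0.06, and 3 of them were at least 2-fold lower on the control side (23.8% of all probes). None of these 3 lists held any of the 97 genes, which are 1.21% of all probes. With lists this small, nothing is read from that.

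Among 8 genes of tRNA modification and charging, 7 were at least 2-fold lower on the control side and 2 on the mutant side (23.8% and 12.4% of all probes). The medians were -1.54 and -0.51 (-0.84 against the mutant CdCl2 array). The gene among the 97 was trm61 (AN8799), named after the catalytic subunit of the yeast tRNA adenine methyltransferase. Its control levels were -1.58 untreated, -3.91 with AmB, -1.71 with CdCl2 and -1.90 with Congo Red, and its mutant levels -2.29, -2.57, -1.78 and -1.75. The change was -2.33 on the control side (0.37 with normexp) and -0.28 on the mutant side, or -0.80 against the mutant CdCl2 array. The other subunit of the yeast enzyme is Trm6, and trm6 (AN8066) stood at -2.85 and -1.05, so that it fell short of the mutant criterion.

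Of 8 genes of mitochondrial import 6 were at least 2-fold lower on the control side and 1 on the mutant side (23.8% and 12.4% of all probes). The medians were -1.48 and -0.42 (-0.60 against the mutant CdCl2 array). The gene among the 97 was tim44 (AN1281), named after the protein that ties the import motor to the inner membrane channel. Its control levels were 0.40 untreated, -1.71 with AmB, 0.91 with CdCl2 and 0.12 with Congo Red, and its mutant levels -0.21, -0.33, 0.56 and 0.08. AmB was the lowest array on each side, with a change of -2.11 on the control side (-1.10 with normexp) and -0.13 on the mutant side, or -0.89 against the mutant CdCl2 array. In the same list tom40 (AN6510), whose yeast namesake forms the entry channel, stood at -2.41 and -1.13, and tom70 (AN7687), an import receptor, at -2.04 and -0.59.

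Both clxA and cwh41 belong to protein folding in the endoplasmic reticulum. Calnexin, the product of clxA (AN3592), is a lectin chaperone that holds glycoproteins while they fold, and yeast Cwh41 is the glucosidase that starts to trim their glycans. The levels of clxA were 2.59 untreated, -0.13 with AmB, 3.86 with CdCl2 and 1.78 with Congo Red on the arrays labelled control. They were 1.52, 1.45, 1.84 and 2.17 on those labelled mutant. The control side spanned far more than the mutant side, with AmB lowest and CdCl2 highest. The AmB change of clxA was -2.72 on the control side, which is 6.58-fold lower (-2.59 with normexp), and -0.07 on the mutant side, or -0.39 against the mutant CdCl2 array.

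For cwh41 (AN6606) the control levels were -0.70 untreated, -3.10 with AmB, -0.05 with CdCl2 and -0.82 with Congo Red, and the mutant levels -0.70, -1.11, -0.78 and -0.59. Its untreated levels were equal on both sides. The AmB change was -2.40 on the control side (-0.43 with normexp) and -0.40 on the mutant side, or -0.32 against the mutant CdCl2 array. Of the 9 chaperone genes 3 were at least 2-fold lower on the control side and 3 at least 2-fold higher, where 23.8% and 23.6% of all probes were. Their medians were 0.25 and 0.96 (0.93 against the mutant CdCl2 array). Besides clxA the lower ones were pdiA (AN7436), protein disulphide isomerase, at -2.86 and -0.70, and bipA (AN2062), an Hsp70 chaperone of the same compartment, at -1.75 and -1.41. The cytosolic hsp90 (AN8269) was at 0.11 and 1.08.

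The last pair with a symbol were rmtA (AN10526), a protein arginine methyltransferase, and kipB (AN4513), a kinesin motor of the mitotic spindle. For rmtA the control levels were 0.97 untreated, -1.35 with AmB, 0.92 with CdCl2 and 0.28 with Congo Red, and the mutant levels -0.14, -0.30, 0.85 and -0.10. For kipB they were -2.23, -4.28, -2.71 and -2.62 on the control side and -2.62, -2.74, -2.44 and -2.60 on the mutant side. The AmB change of rmtA was -2.32 on the control side (-1.61 with normexp) and -0.16 on the mutant side, where it was -1.14, over 2-fold lower, against the mutant CdCl2 array. That of kipB was -2.06 (0.98 with normexp) and -0.12, or -0.30 against the mutant CdCl2 array. The 9 measured genes of the cell cycle list had medians of -1.14 and -0.95, with 5 and 4 at least 2-fold lower (23.8% and 12.4% of all probes). They held none of the 97 (1.21% of all probes).

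By processed signal the largest control change belonged to AN2547, without a symbol. Its control levels were 0.16 untreated, -3.12 with AmB, -0.01 with CdCl2 and 1.20 with Congo Red, and its mutant levels 0.46, 0.08, 0.76 and 0.34. The control AmB array was thus 9.77-fold below its untreated array, and the mutant change was -0.38, or -0.69 against the mutant CdCl2 array. With normexp the control change of AN2547 was -1.18, and those of clxA at -2.59 and AN2436 at -2.85 were larger. AN2077 had a fitted change of -2.77, or 6.80-fold lower (1.06 with normexp). It was not well above background on the control AmB array, and no detection limit enters that fold. Its mutant change was -0.25, or -0.84 against the mutant CdCl2 array. AN10588 was at -2.71 (0.52 with normexp) on the control side and 0.02 on the mutant side, or 1.36 against the mutant CdCl2 array. AN6902 was at -2.68 (-1.41 with normexp) and -0.48, which became -1.47 against the mutant CdCl2 array.

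The mutant baseline was also exchanged for the other arrays of the same label, as a further description. With the mutant CdCl2 array in place of the untreated one, the AmB change on the mutant side had a median of -0.63, with 17 of 97 genes at least 2-fold lower, where 13.1% of all probes were. Of the 97 genes 38 still lay above -0.5, where 71.6% of all probes did, among them spb4, lcp5, clxA, cwh41 and kipB. With the mutant Congo Red array as baseline the median was -0.35, and 5 of 97 were at least 2-fold lower, where 12% of all probes were. Within each label the Congo Red array lay on another slide than the other 3 arrays, so that every Congo Red baseline or change also compares slides. The control and mutant arrays lay on different slides in every condition, and slide and strain label cannot be told apart in a single pair of arrays.

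The control baseline was exchanged in the same way. Set against the control CdCl2 array the AmB level was at least 2-fold lower in 96 of 97 genes (23.2% of all probes), with a median of -2.18 and 69 genes at -2 or less. Against the control Congo Red array the count was again 96 (22.7% of all probes), with a median of -1.85 and 34 genes at -2 or less. Both counts rest on the AmB array that chose the genes. In the value table the median was -2.06 in the mutant columns, with 97 of 97 at least 2-fold lower (25.5% of all probes), and -0.66 in the control columns, with 14 of 97 at least 2-fold lower (11.7% of all probes). The medians over all probes in that table were -0.36 and -0.15.

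**Figure D4:**
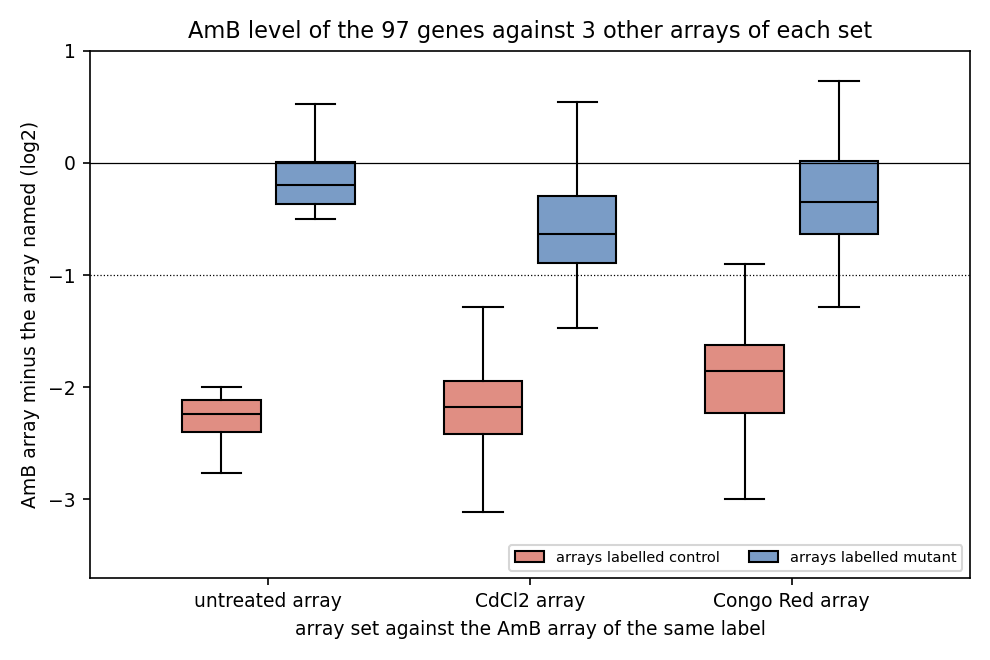
AmB level of the 97 genes minus the level on the array named on the x axis (y axis, log2), for arrays labelled control (red) and mutant (blue); boxes span the quartiles, lines are medians, whiskers reach to 1.5 times the box height and genes beyond them are not drawn. Control medians lie between -2.24 and -1.85, mutant medians between -0.63 and -0.19.

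CdCl2 and Congo Red moved few of the 97 genes, and few of all probes, by 2-fold. Both changes share the untreated arrays that chose the genes. CdCl2 gave a median change of -0.07 on the control side, with 3 genes at least 2-fold higher and 2 lower (3.73% and 2.64% of all probes). On the mutant side it was 0.51, with 82 of 97 above 0 (42.6% of all probes). There 2 genes were 2-fold higher and 1 lower (0.288% and 1.48% of all probes). Congo Red gave -0.41 on the control side, with 4 genes 2-fold higher and 3 lower (4.85% and 1.44%). The mutant median was 0.18, with 71 of 97 above 0 (44.3% of all probes) and with 2 genes 2-fold higher and 1 lower (1.8% and 2.62%). The medians over all probes were between -0.06 and 0.00 in these 4 comparisons.

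The 57 probes that were 4-fold lower under AmB on both sides differed from the 97 genes in these values on the mutant side. Their median change on the mutant side was -0.10 with CdCl2 and -0.32 with Congo Red, against 0.51 and 0.18 for the 97 genes. On the control side it was -0.15 and -0.45, near the -0.07 and -0.41 of the 97. The 57 probes also had more signal on the untreated array labelled control, by a median of 0.51 (77.2% above 0), against 0.74 for the 97. These differences were not tested, since every value shares an untreated array with the choice of genes.

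The 4 CdCl2 and Congo Red arrays took no part in that choice and allowed a test. A limma fit with strain label and stress as terms was run over 8423 probes well above background on at least 2 of these arrays, with p-values adjusted by Benjamini-Hochberg. It has 1 residual degree of freedom, and its spread is the departure from additivity between single arrays, not the spread between cultures. The slide cannot be told apart from that departure. In these tests all probes means the 8423 probes.

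Between the strain labels 193 of 8423 probes (2.29%) passed at an adjusted p of 0.05, 53 higher and 140 lower on the arrays labelled control (0.629% and 1.66%). Of the 97 genes 2 passed, a share near that of all probes, 1 in each direction. The median difference over the 97 was 0.18, with 68 above 0, against a median of 0.05 and 56.0% above 0 over all probes. In single pairs of arrays it was 0.13 under CdCl2 and 0.13 under Congo Red, and 0.30 and 0.31 for the 57 probes lower on both sides.

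AN10588 was higher on the arrays labelled control. Its levels there were -1.79 untreated, -4.50 with AmB, -2.13 with CdCl2 and 0.08 with Congo Red, and those labelled mutant gave -4.83, -4.81, -6.17 and -3.75. Every array labelled control except the AmB one lay above every array labelled mutant. The difference over CdCl2 and Congo Red was 3.93 ± 0.22 (limma estimate ± SE, 2 arrays a label, adjusted p = 0.0189), higher in 2 of 2 pairs. With the mutant untreated array in place of the CdCl2 one it was 3.26 (limma adjusted p = 0.0555).

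AN3526 was lower on the arrays labelled control. Its levels there were -4.18 untreated, -6.85 with AmB, -5.82 with CdCl2 and -4.71 with Congo Red, and those labelled mutant gave -1.07, -1.07, -1.02 and -0.65. The sides did not overlap, and the control AmB array was not well above background. The difference was -4.43 ± 0.29 (limma estimate ± SE, adjusted p = 0.0205), lower in 2 of 2 pairs.

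The next 3 genes by p did not pass. AN2201 stood at -2.41 ± 0.34 (limma adjusted p = 0.0685), AN8910 at -5.33 ± 0.79 (0.0756) and AN7671 at 1.27 ± 0.22 (0.0919). AN2201 and AN8910 were, like AN3526, not well above background on the control AmB array, with bounds of at least 1.72-fold and at least 1.76-fold lower. AN8910 was also not well above background on the control CdCl2 array (level -7.87), so its difference rests on 1 measured control array and is no exact size. None of the 5 ribosome biogenesis genes passed. Their differences ran from 0.10 for erb1 to 0.77 for lcp5, with limma adjusted p from 0.231 to 0.862. Of the 26 genes of the list 23 were above 0, against 56.0% of all probes.

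**Figure D5:**
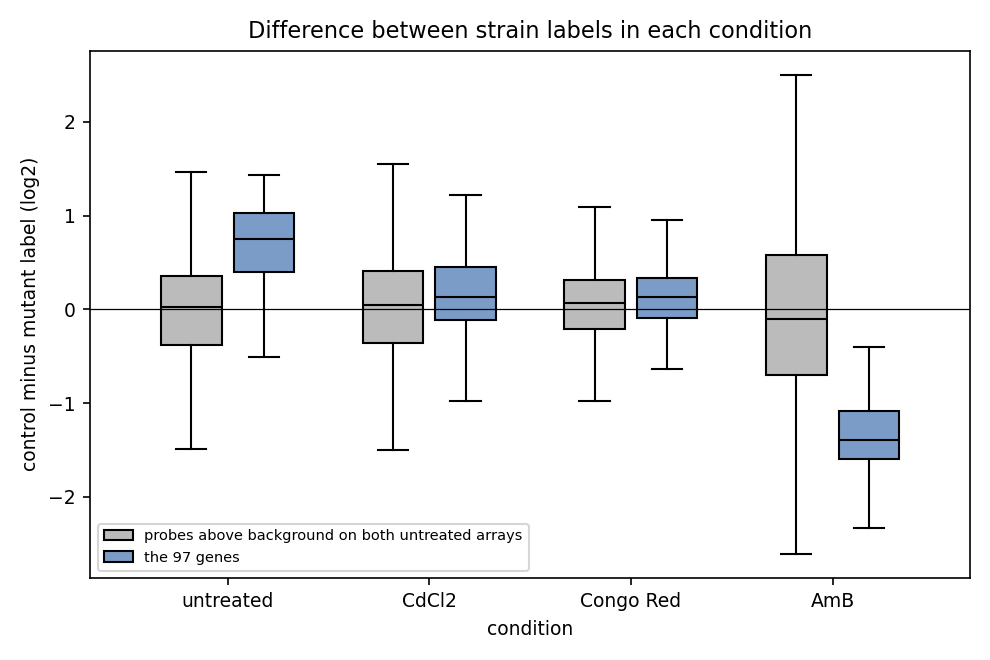
Level on the array labelled control minus level on the array labelled mutant (y axis, log2) in each condition (x axis), for all probes well above background on both untreated arrays (grey) and for the 97 genes (blue); boxes span the quartiles, lines are medians, whiskers reach to 1.5 times the box height and genes beyond them are not drawn. The median of the 97 is 0.74 untreated, 0.13 under CdCl2 and Congo Red, and -1.39 under AmB.

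Some markers of conidia and conidiophores, the other cell type that a mycelial culture can hold, differed between the labels as well. Summed over the 9 markers, the signal relative to the 75th percentile was 4.50 to 11.1 on the arrays labelled control and 0.740 to 1.41 on those labelled mutant. The sum of 11.1, on the control Congo Red array, came mostly from ivoB (level 2.90) and rodA (1.66), with pksP next at -2.68. Of the 9 markers 6 to 8 were well above background on each control array and 5 to 9 on each mutant array. In the limma fit 3 of 9 were higher on the arrays labelled control, namely the hydrophobin gene rodA by 3.54 ± 0.25 (adjusted p = 0.0205) and the pigment genes ivoA and ivoB by 2.05 ± 0.23 and 5.12 ± 0.30. The other 6 did not pass, with brlA at 1.81, dewA at 0.76, yA at -0.17, abaA at -0.25, pksP at -0.56 and wetA at -0.94, so that 4 of 9 estimates lay below 0. No marker was among the 97 genes, which are 1.21% of the 7986 probes that met the background criterion. The part of conidial cells in the differences was not tested.

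Between CdCl2 and Congo Red no probe passed (0% of 8423 in limma at an adjusted p of 0.05; 759 had an unadjusted p under 0.05). None of the 97 genes passed, and 19 had an unadjusted p under 0.05. Their median difference, CdCl2 minus Congo Red, was 0.32, with 74 of 97 above 0. Over all probes it was -0.02, with 47.7% above 0. With the mutant untreated array in the place of the CdCl2 one the median was 0.10, and 0.08 was found in the value table. The gene with the lowest p was AN10588, at -2.32 ± 0.22 (limma adjusted p = 0.145). It was followed by AN0461 at 1.07, AN4346 at 0.98, AN2436 at -1.10 and AN2077 at 0.88, with limma adjusted p from 0.363 to 0.443.

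In the ribosome biogenesis list 26 of 26 estimates of CdCl2 minus Congo Red were above 0, with a median of 0.43 and 9 unadjusted p under 0.05, against 47.7% of all probes above 0 and 9.01% with such a p. None passed the limma test. With the mutant untreated array in place of the CdCl2 one 20 of 26 were above 0, the median was 0.16 and no unadjusted p was under 0.05. For the 5 genes among the 97 they ran from 0.30 for drs1 to 0.82 for dbp9, with limma adjusted p from 0.459 to 0.733.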

How the data were processed

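All 8 single-colour (Cy3) arrays were used under the strain labels of their scanner files. Each holds a processed signal per spot, a background-subtracted intensity, with the median spot and background intensity, as the authors deposited them. The submitters' processing notes name Agilent Feature Extraction, version 12.0.3.1. The authors also deposited a table of log2 values; the sources used here do not give its normalization or centring. Column medians ran from 9.237 to 9.26. Every column correlated positively with every array, so higher values were taken as more signal.

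Control spots and spots with a feature outlier flag (1.46% to 1.90% of spots) were dropped. A level is the mean log2 processed signal over the remaining spots of a probe (of 4), minus log2 of the array's 75th percentile. The median SD between spots was 0.0735 to 0.0972, which covers the slide and scanner only. The arrays detected 7691 to 8482 probes each. With 1 array a group, the number of arrays sets the precision. Tests used limma 3.58.1 in R 4.3.3. They were run on simulated data with independent errors and additive shifts, which cannot show how they behave with slide effects or departures from additivity. The slide, read from the barcode in the file names, put untreated, AmB and CdCl2 of each label together and Congo Red on the other of 2 slides.

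The 97 genes and the 11 gene lists were chosen with earlier results of these data known. Lists were matched by symbol, which 776 of 10550 probes have (9697 matched the RefSeq table), and 1 list, RNA polymerases I and III, had no match; the single nuclear transport gene stood at -0.66 and -0.36 under AmB. The 7 conidial markers above background on both untreated arrays had AmB medians of -0.09 and -0.64. Genes were named if they were on a list, had a symbol and one of the 10 largest gaps, were among the 5 lowest control changes, lay next to a threshold or had one of the 5 lowest p-values of a test. The alternatives were normexp, quantile normalization, other filters, thresholds and baselines, and the value table. Normexp used the median signal, because the files have no mean signal column. Motifs of promoters were not analysed here.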

Additional observations from a re-analysis of the deposited data

Results flagged for a closer look

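In 5 results the medians on the arrays labelled control and mutant lay on opposite sides of 0. With 1 array a condition on each side, the differences were not tested. The CdCl2 change of the 97 genes had a median of -0.07 on the control side and 0.51 on the mutant side, and the Congo Red change -0.41 and 0.18. In the ribosome biogenesis list the AmB change had medians of -1.77 and 0.15, the CdCl2 change -0.03 and 0.58, and the Congo Red change -0.45 and 0.18. All 5 share the untreated arrays, and the control CdCl2 medians lie near the median of -0.04 over all probes. The mutant AmB median of the list became -0.50 against the mutant CdCl2 array, also below 0, and 0.04 against the mutant Congo Red array. In the value table both sides lay below 0 where it was computed. The control and mutant columns gave -0.47 and -0.06 for the CdCl2 change of the 97 genes, -0.26 and -0.38 for their Congo Red change, and -0.48 and -1.78 for the AmB change of the ribosome biogenesis list.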

How the results depend on the processing

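The number of genes that meet the rule was 97. It was 17 with normexp (9 of them among the 97), 219 with quantile normalization (79 shared), 9 in the value table under its own labels (0 shared) and 25 with its strain labels exchanged (17 shared). It was 50 with the mutant CdCl2 array as baseline (38 shared), 96 with the mutant Congo Red array (62 shared), 120 with the control CdCl2 array (69 shared) and 86 with the control Congo Red array (34 shared). It was 328 with a control threshold of -1.5 and 25 with a mutant threshold of 0. Keeping flagged spots, chosen after seeing the data, gave 95, all among the 97. The control median of the AmB change, -2.24, became -0.33 with normexp, -2.61 with quantile normalization, -0.66 and -2.06 in the value table under its own and exchanged labels, and -1.85 against Congo Red. The mutant median, -0.19, became 0.19, -2.06 and -0.66 with normexp and the same 2 versions of the value table, -0.63 against CdCl2 and -0.35 against Congo Red. The Congo Red baselines, the control CdCl2 baseline, the untreated array in place of CdCl2 and the tests on the exchanged value table were also added after seeing the data.

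Between strain labels 193 probes passed in limma. The count was 410 with normexp, 333 with quantile normalization, 60 over all probes, 104 with the filter on all 4 arrays, 365 in the value table under either labels and 115 with the mutant untreated array in place of CdCl2. Of the 97 genes 2 passed, and 6, 4, 4 and 1 with normexp, quantile normalization, the value table and the replaced array. Between CdCl2 and Congo Red 0 passed, against 45 with normexp (1 of the 97) and 10 in the value table. Under its own labels, which exchange the strains, the value table turned the signs of AN10588 (-2.48), AN3526 (3.13), AN2201 (1.54), AN8910 (3.26) and AN7671 (-1.06). Of the remaining values under an alternative, 95 kept their call or moved by less than the spread, 24 moved, 8 passed newly and 1 no longer passed. The causes were not tested.

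No paired analysis was possible because each group had 1 array and no replicate numbers; no array could be left out of a group. A slide block leaves no residual degree of freedom, so single-pair values are given. Normexp uses the median spot signal and adds 50 on every array, and the 75th percentile was 335.7 and 261.8 on the AmB arrays; falls of dim genes are limited by this signal.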
